A study of Homo sapiens with 2 samples.

Results

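A set of 10 noncoding genes whose introns carry small nucleolar RNAs (snoRNAs) was compared between an RNA immunoprecipitation (RIP) of the topoisomerase TOP3B and the input of that RIP. The genes were SNHG1, SNHG3, SNHG5, SNHG6, SNHG7, SNHG8, SNHG12, SNHG15, GAS5 and ZFAS1. They were listed by symbol, with no threshold on their values, although earlier results of these data were known when the list was drawn up. All 10 were present among the 13075 genes with values. The RIP library held RNA that came down with an anti-FLAG monoclonal antibody from HEK293 cells, which had been transfected with a FLAG-tagged form of TOP3B (R338W, a substitution of arginine by tryptophan). The input library held RNA of the same transfected cells with no antibody step. HEK293 is a human embryonic kidney cell line, and both libraries carried passage number 15. The series title names RNAs that contain TOP3B cleavage complexes as its object, so the comparison asks which RNAs are richer in the RIP than in the input. Each group had 1 library, so no difference below has a replicate check and no test across samples could be made. Antibody recovery from untransfected cells was not analysed here. In these bulk libraries, fewer cells holding a transcript and less of it per cell cannot be told apart.

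A snoRNA host gene is transcribed and spliced like a messenger RNA, and the snoRNAs are cut out of the removed introns. Box C/D snoRNAs guide methylation of ribosomal RNA and box H/ACA snoRNAs guide its conversion of uridine to pseudouridine, while a few of either kind are needed for cleavage of the ribosomal RNA precursor. The spliced RNA of a noncoding host has no long reading frame, and that of several hosts, GAS5 among them, is known to be translated for a short stretch and then removed by nonsense-mediated decay. Many of these genes begin, like ribosomal protein genes, with a C followed by a run of pyrimidines (a 5′ terminal oligopyrimidine, or TOP, start), and translation of RNAs with such a start follows cell growth.

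The bases around the annotated start show how far these genes share such a start. For 8 of the 10 genes the RefSeq promoter table of GRCh38.p14 gave the 41 bases from 20 before to 20 after the first base. The longest run of C or T is in capitals, and each sequence is written 5′ to 3′ on the strand of the gene. Where runs tie the first is marked, as in SNHG1, where a run after the start is as long.
SNHG1: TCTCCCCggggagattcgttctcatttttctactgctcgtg
SNHG3: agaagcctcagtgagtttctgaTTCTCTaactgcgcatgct
SNHG5: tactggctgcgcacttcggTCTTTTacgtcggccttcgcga
SNHG7: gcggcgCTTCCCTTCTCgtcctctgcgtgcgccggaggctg
SNHG8: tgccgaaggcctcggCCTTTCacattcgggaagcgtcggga
SNHG12: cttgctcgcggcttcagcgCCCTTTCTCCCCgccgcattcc
GAS5: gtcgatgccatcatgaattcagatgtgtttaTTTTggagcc
ZFAS1: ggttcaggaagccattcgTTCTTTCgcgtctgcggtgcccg

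These windows lie at chr11:62855865-62855905 (SNHG1, minus strand), chr1:28505923-28505963 (SNHG3, plus), chr6:85678713-85678753 (SNHG5, minus), chr9:136728164-136728204 (SNHG7, minus), chr4:118278742-118278782 (SNHG8, plus), chr1:28581853-28581893 (SNHG12, minus), chr1:173869025-173869065 (GAS5, minus) and chr20:49278622-49278662 (ZFAS1, plus). SNHG5, SNHG12 and ZFAS1 had a C at the first base followed by at least 4 pyrimidines, so 3 of 8 hosts (37.5%) did, against 1429 of all 35116 promoters (4.07%) and 47 of 78 ribosomal protein promoters (60.3%). The longest pyrimidine run was 12 bases in SNHG12 and 11 in SNHG7, lengths reached by 4.34% and 6.08% of all promoters. It was 4 bases in GAS5, reached by 80.1% of promoters. Except in SNHG7, the RefSeq starts used here differ from the GENCODE 5′ ends. They lie upstream by 163 bases in GAS5 and by 37 bases in SNHG3, where the start is the first base of RCC1. They lie inside the gene by 1259 bases in SNHG12, 464 in ZFAS1, 53 in SNHG8, 29 in SNHG1 and 15 in SNHG5. Windows at other starts were not examined. A pyrimidine run describes the letters at 1 annotated start and not the start used in these cells.

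Values were FPKM (fragment numbers divided by transcript length and by the library's total), and the ratio was log2((RIP + 1)/(input + 1)). A gene was described as apart where it was at least 2-fold higher or lower on that scale, and the background was the 11990 genes that reached 5 FPKM in either library. Depth was estimated from the steps of the values at 24700000 fragments for the RIP and 15160000 for the input. Each host then rested on an estimated 553 to 4695 fragments in the RIP, against 482 to 1753 in the input. Intervals below are 95% exact binomial intervals of these estimated fragments. They cover counting error only, and say nothing of the spread between experiments.

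Relative to the median gene the hosts were mostly lower in the RIP, with SNHG1 and SNHG3 at opposite ends, whereas their direction against the input itself depended on the scaling. Of the 10 genes 1, SNHG3, was at least 2-fold lower, beside 2.5% of all genes, and 0 were at least 2-fold higher, beside 4.9% of all genes. Ratios lay below 0 for 7 genes and above 0 for 3, beside 41.2% of all genes below 0 and 58.7% above. At a limit of 1.5-fold 1 host, SNHG1, was higher (19.9% of all genes were) and 3 hosts, SNHG3, SNHG8 and SNHG5, were lower (10.2% of all genes were). The median log2 ratio was -0.26, against 0.13 over all genes. Relative to the median gene 8 hosts were lower and 2, SNHG1 and SNHG12, were higher. Of the hosts, 5 lay under the lower quartile of all genes (-0.25) and 1 above the upper quartile (0.50). The balance of all genes past 2-fold depended on the scaling, since 66.2% of them were higher as deposited, 44.8% when centred on the median gene, 39.7% when each library was scaled to its protein-coding sum and 95.1% when it was scaled to the sum of all its values. The last scaling, tried after seeing the data, turned the direction of the hosts as a group. The 10 genes made up 0.1003% of all FPKM in the RIP against 0.0770% in the input, their median became 0.20 against 0.57 over all genes, and 6 of 10 ratios lay above 0. Under it SNHG1 (1.42) passed the 2-fold limit and SNHG3 (-0.95) did not.

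**Figure D1:**
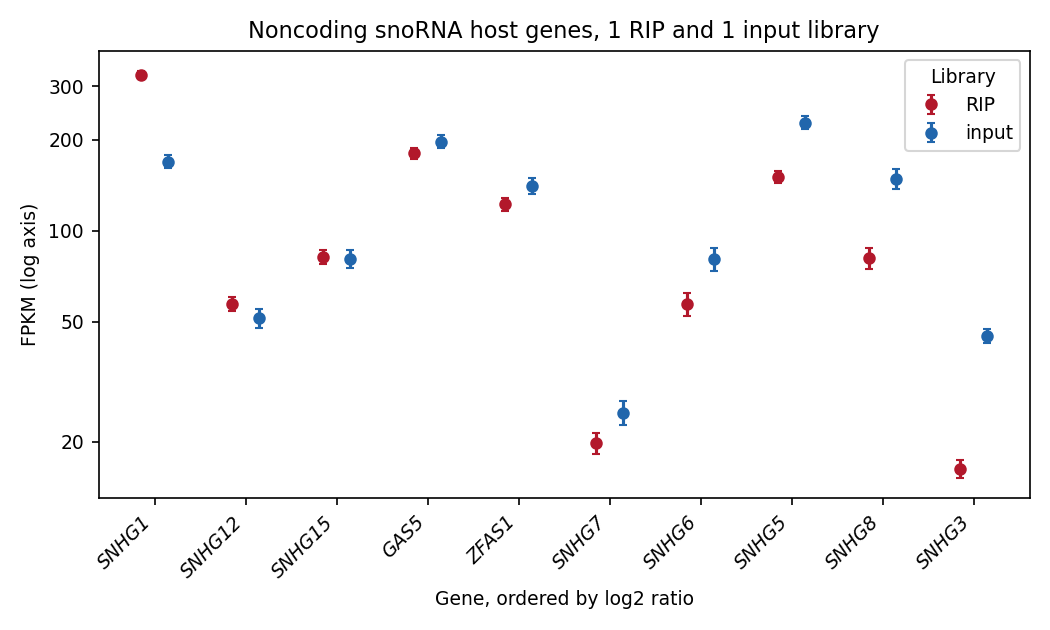
FPKM of each host gene in the RIP (red) and in the input (blue) on a log axis, with genes ordered from the highest to the lowest log2 ratio and bars showing 95% Poisson intervals of the estimated fragments. SNHG1 stood at 327 FPKM in the RIP against 169 in the input at the left end, and SNHG3 at 16.3 and 44.8 FPKM at the right end.

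SNHG1 had the highest ratio of the 10. This gene (ENSG00000255717.6, GRCh38 chromosome 11, 62851988 to 62855914, minus strand) is one of the hosts richest in box C/D snoRNAs, with 7 snoRNA genes annotated within it. It stood at 327 FPKM in the RIP against 169 FPKM in the input. The log2 ratio of 0.95 had an interval of 0.86 to 1.03, so the 2-fold limit lay inside the counting error. Of all genes past the floor, 723 (SNHG1 included) had a ratio at least as high. SNHG1 supplied 29.9% of the summed FPKM of the 10 hosts in the RIP against 14.5% in the input. The sum of all 10 was 1093.5 FPKM in the RIP against 1163.9 in the input. Without SNHG1 it was 766 FPKM in the RIP against 995 in the input.

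SNHG3 had the lowest ratio. It carries the 2 copies of SNORA73, known as U17, a box H/ACA RNA needed for cleavage of the ribosomal RNA precursor. SNHG3 (ENSG00000242125.3, chromosome 1, 28505980 to 28510892, plus strand) stood at 16.3 FPKM in the RIP against 44.8 FPKM in the input. The log2 ratio was -1.40 with an interval of -1.53 to -1.28, and 142 of 11990 genes, SNHG3 included, were at least as low. The gene lies within the span of RCC1, the exchange factor of the GTPase Ran, on the same strand, and 242 of its 4088 annotated exonic bases (5.92%) are exonic in RCC1 too. RCC1 stood at 43.6 FPKM in the RIP against 39.3 in the input (log2 ratio 0.14). How the fragments of shared bases were divided between both genes is not given in the sources used here.

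SNHG8 and SNHG5 were the next lowest. SNHG8 (ENSG00000269893.6, chromosome 4, 118278709 to 118279823, plus strand), a short host of the H/ACA RNA SNORA24, stood at 81.1 FPKM in the RIP against 148 FPKM in the input. Its log2 ratio of -0.86 had an interval of -1.02 to -0.70, and it passed the 2-fold limit (-1.03) when libraries were scaled to their protein-coding sums. SNHG5 (ENSG00000203875.10, chromosome 6, 85660950 to 85678748, minus strand), host of the C/D RNA SNORD50B, stood at 151 FPKM in the RIP against 228 FPKM in the input (log2 ratio -0.59). It was the host with the highest input level and held the third place in the RIP.

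As deposited, SNHG6, SNHG7, ZFAS1 and GAS5 were lower by less. SNHG6 (ENSG00000245910.8, chromosome 8, 66921684 to 66926398, minus strand), host of SNORD87, stood at 57.0 FPKM in the RIP against 80.3 FPKM in the input (log2 ratio -0.49). SNHG7 (ENSG00000233016.6, chromosome 9, 136721366 to 136728184, minus strand) had 19.8 FPKM in the RIP against 24.98 FPKM in the input (log2 ratio -0.32). ZFAS1 (ENSG00000177410.12, chromosome 20, 49278178 to 49295738, plus strand), named for its position antisense to the start of ZNFX1 and host of the SNORD12 group, stood at 122 FPKM in the RIP against 141 FPKM in the input (log2 ratio -0.21). GAS5 (ENSG00000234741.7, chromosome 1, 173863900 to 173868882, minus strand), which was named growth arrest-specific because its RNA builds up in arrested cells, stood at 180 FPKM in the RIP against 197 FPKM in the input (log2 ratio -0.13). The intervals of these 4 genes lay below 0, with the upper bound nearest to 0 in GAS5 (-0.03). Scaled to the sum of all values, SNHG7 (0.13), ZFAS1 (0.26) and GAS5 (0.34) lay above 0 and SNHG6 (-0.02) stayed below.

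SNHG15 and SNHG12 lay close to the input. SNHG15 (ENSG00000232956.8, chromosome 7, 44983023 to 44986961, minus strand), host of SNORA9, stood at 82.0 FPKM in the RIP against 80.4 FPKM in the input. Its log2 ratio of 0.03 had an interval of -0.10 to 0.15, so no difference was detectable at this depth. SNHG12 (ENSG00000197989.13, chromosome 1, 28578538 to 28583132, minus strand) had 57.3 FPKM in the RIP against 51.2 FPKM in the input (log2 ratio 0.16) with an interval of 0.02 to 0.29. The sign of both depended on the scaling. SNHG15 had -0.10 when centred on the median gene, -0.14 when scaled to protein-coding sums and 0.49 when scaled to the sum of all values, and SNHG12 had 0.03, -0.01 and 0.62.

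SNHG1 held the first place by level in the RIP and the third in the input, and SNHG5 the third in the RIP and the first in the input. In the RIP the order from the highest was SNHG1, GAS5, SNHG5, ZFAS1, SNHG15, SNHG8, SNHG12, SNHG6, SNHG7 and SNHG3. There SNHG15 and SNHG8 were not separated beyond counting error, nor were SNHG12 and SNHG6. In the input the order was SNHG5, GAS5, SNHG1, SNHG8, ZFAS1, SNHG15, SNHG6, SNHG12, SNHG3 and SNHG7, and neither SNHG8 and ZFAS1 nor SNHG15 and SNHG6 were separated.

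The annotation gave the hosts different transcript sets. GAS5 had 19 retained-intron transcripts of 29, SNHG1 13 of 25 and SNHG12 10 of 17, and these 3 hosts held the fourth, first and second highest ratios. The other 7 had at most 4 such transcripts, and 4 of them (SNHG7, SNHG8, SNHG15 and ZFAS1) had none. SNHG15, with none, held the third highest ratio, and SNHG3, with 2 of its 3 transcripts, held the lowest. This is a description over 10 genes of a number that also grows with the number of annotated transcripts, and which transcripts were present was not measured here.

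**Figure D2:**
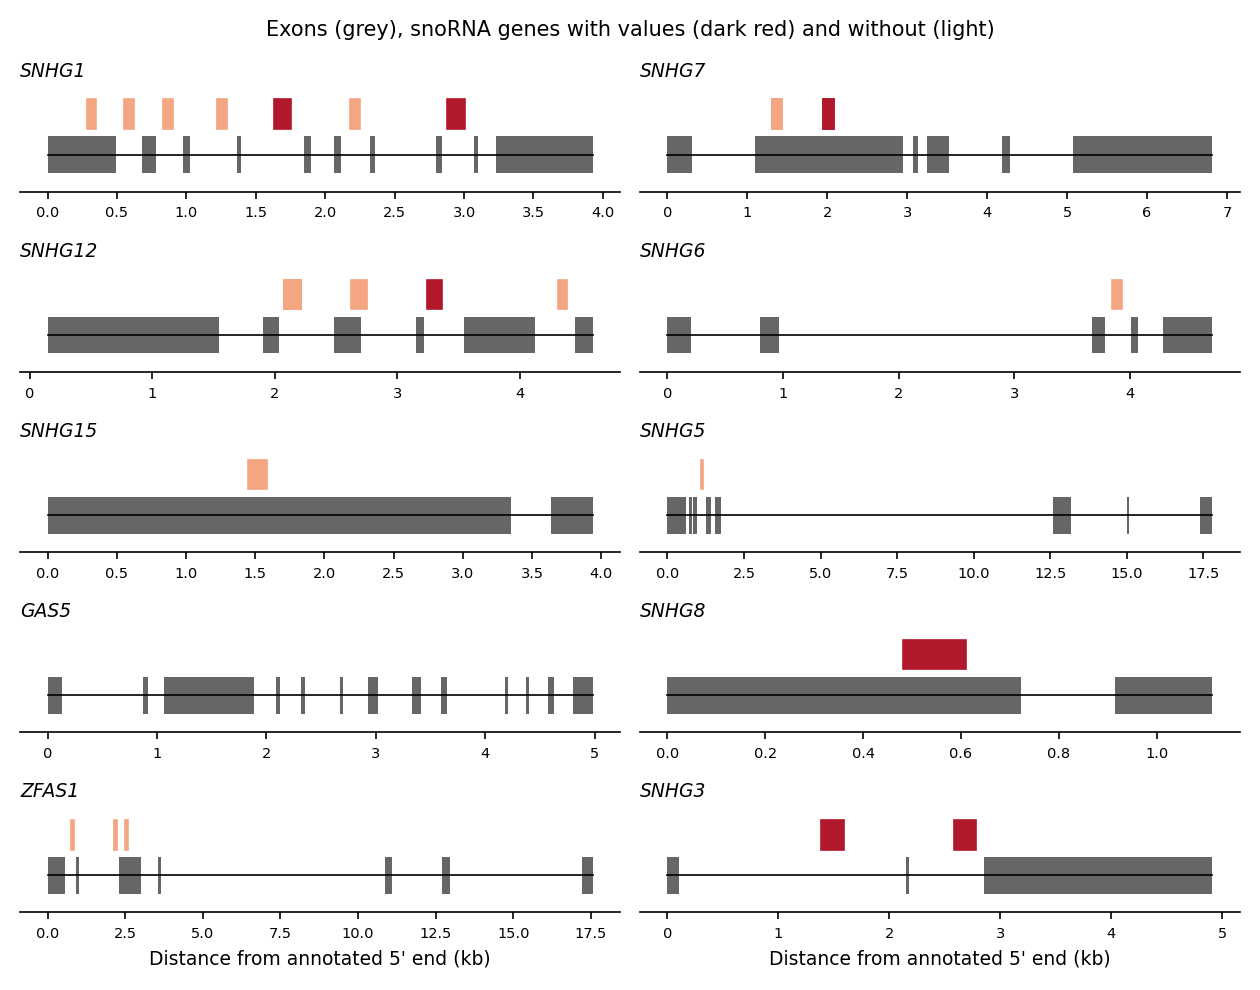
Annotated exons of each host, merged over its transcripts other than retained-intron ones (grey), with snoRNA genes drawn above them in dark red where they had a value and in light orange where they had none, against distance from the annotated 5′ end in kilobases. SNHG1 held 7 snoRNA genes, 2 of them with values, and both snoRNAs of SNHG3 had values.

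The snoRNAs inside the hosts could be set beside the hosts themselves for 5 genes. The annotation placed 25 snoRNA genes within 9 of the hosts on the same strand, and 8 of them had values, 125 to 206 bases long. The other 17 were 69 to 137 bases long, and 11 of those were shorter than any with a value. All 25 lay within an intron of at least 1 annotated host transcript, and 20 also met an exon of another. Fragments of the snoRNA and of an unspliced host cannot be told apart there. No snoRNA gene of GAS5 was used here.

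As deposited, both U17 copies in SNHG3 were lower in the RIP, like their host and like most snoRNA genes past the floor. Of 117 snoRNA genes outside the hosts and past the floor, 95 had ratios below 0, beside 41.2% of all genes. At least 2-fold lower were 60 of them, beside 2.5% of all genes. The 117 had low median levels (RIP 13.8, input 29.3 FPKM). For an RNA of 135 bases 1 fragment gives 4.99 FPKM (RIP) or 8.14 (input), so short ones can rest on few fragments. Of these only the input fragment passes the floor of 5 FPKM. How far this lowers the ratios of the 117 was not tested. SNORA73A (ENSG00000274266.1) stood at 233 FPKM in the RIP against 531 FPKM in the input (log2 ratio -1.19) with an interval of -1.44 to -0.94. SNORA73B (ENSG00000200087.1) stood at 154 FPKM in the RIP against 241 FPKM in the input (log2 ratio -0.64) with an interval of -0.99 to -0.30. The host had -1.40. The sequences from the GENCODE transcripts (GRCh38, chr1:28507366-28507571 and chr1:28508559-28508762, plus strand) are shown because the copies are alike over most of their length, with the ACA box 3 bases before the end in capitals.
SNORA73A: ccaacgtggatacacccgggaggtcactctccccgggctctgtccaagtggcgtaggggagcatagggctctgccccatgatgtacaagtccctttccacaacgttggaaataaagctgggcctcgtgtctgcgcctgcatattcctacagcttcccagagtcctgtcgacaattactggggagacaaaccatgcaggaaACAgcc
SNORA73B: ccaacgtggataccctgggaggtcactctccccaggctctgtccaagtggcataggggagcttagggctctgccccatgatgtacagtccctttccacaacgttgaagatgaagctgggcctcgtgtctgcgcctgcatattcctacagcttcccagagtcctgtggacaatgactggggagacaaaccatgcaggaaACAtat

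In a global alignment 192 of 206 positions (93.2%) matched between them. Reads of shared stretches can be assigned to either copy, so their separate values are uncertain. The ACA box stood at that position in 112 of 149 annotated SNORA transcripts (75.2%).

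In SNHG7 the snoRNA value was split between overlapping entries. Its intronic H/ACA RNA SNORA43 was listed as 2 entries, both named SNORA17B in the annotation, that cover the same bases, and they went opposite ways. The entry of 136 bases (ENSG00000280496.1) stood at 314 FPKM in the RIP against 260 FPKM in the input (log2 ratio 0.28). The entry of 130 bases (ENSG00000276161.1) stood at 185 FPKM in the RIP against 720 FPKM in the input (log2 ratio -1.95). All 130 bases of the shorter entry lie within the longer one. Summed over both entries SNORA43 stood at 499.5 FPKM in the RIP against 979 FPKM in the input, which is -0.97 on the log2 scale. These sums came from about 95.3 RIP fragments and 103 input fragments. The ratios of the separate entries are not read as a difference, and the host SNHG7 had -0.32.

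The snoRNAs of SNHG1, SNHG8 and SNHG12 rested on few fragments. In SNHG1, 2 entries named SNORD22 (U22, a C/D RNA needed for small-subunit ribosomal RNA processing in Xenopus) stood at 107 and 61.6 FPKM in the RIP, against 75.9 and 69.4 FPKM in the input. They rested on about 13 and 8 fragments in the RIP, against about 6 and 5 in the input, and their intervals reached from -0.999 to 2.18 and from -1.96 to 1.79. SNORA24 in SNHG8 stood at 18.5 FPKM in the RIP against 61.2 FPKM in the input, about 3 and 6 fragments, with an interval of -4.30 to 0.55. SNORA61 in SNHG12 stood at 7.97 FPKM in the RIP, about 1 fragment, and was listed at 0 in the input. None of these 4 could be told from the input at this depth. Over the 8 entries the median log2 ratio was -0.41, against -1.07 over 117 snoRNA genes elsewhere in the genome. With a floor of 20 FPKM the median of the entries was -0.64. The 8 include SNORA61, whose ratio depends on the pseudocount, and the SNORA43 entries, so these medians are not read as a difference. Leaving aside the SNORA43 entries and the 4 on few fragments, SNORA73A was at least 2-fold lower as deposited and SNORA73B was not. Scaled to the sum of all values, 2 of the 8 entries were at least 2-fold lower instead of 3, and their median was 0.06. Ratios of single snoRNAs under that scaling are not given here.

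**Figure D3:**
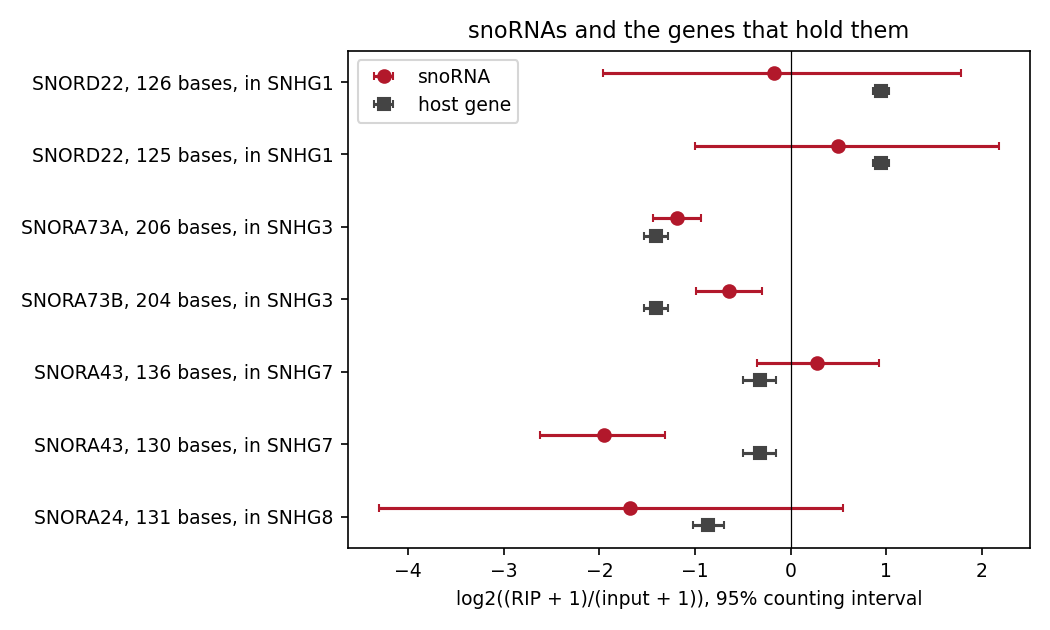
Log2 ratio of each snoRNA entry with a value in both libraries (red circles) and of the host gene that holds it (grey squares), with 95% counting intervals. Both SNORA73 copies and their host SNHG3 lie below 0, the SNORA43 entries lie at 0.28 and -1.95, and the intervals of SNORD22 and SNORA24 span 0.

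ZNFX1 and SLC3A2, which start beside hosts, had ratios that differed from the host's beyond counting error, and ZBTB37 did not. ZNFX1, a helicase-like protein gene whose start lies 248 bases from that of ZFAS1 on the opposite strand, stood at 41.8 FPKM in the RIP against 24.9 FPKM in the input (log2 ratio 0.73), where ZFAS1 had -0.21. SLC3A2, the heavy chain of amino acid transporters, starts 188 bases from SNHG1 and stood at 128 FPKM in the RIP against 110 FPKM in the input (log2 ratio 0.21), where SNHG1 had 0.95. ZBTB37 starts 800 bases from GAS5 and stood at 6.14 FPKM in the RIP against 8.03 FPKM in the input (log2 ratio -0.34), where GAS5 had -0.13. The annotated ends of ZNFX1 and ZFAS1 overlap, as do those of ZBTB37 and GAS5. Whether strand was used in counting is not given in the sources used here, although the library kit marks strand.

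The other noncoding hosts also lay mostly below the median gene. All 14 with values passed the floor, and 12 had ratios below the median gene and below 0, beside 41.2% of all genes below 0. The median of the 14 was -0.52, which became -0.073 when scaled to the sum of all values. SNHG4 was the only one at least 2-fold lower, beside 2.5% of all genes. It stood at 8.36 FPKM in the RIP against 17.8 in the input (log2 ratio -1.01). It fell short of the limit with a pseudocount of 5 and when scaled to the sum of all values. SNHG22 stood at 28.3 FPKM in the RIP against 52.6 in the input, SNHG25 at 106 and 190, and DANCR, the host of SNORA26, at 9.48 and 17.0. EPB41L4A-AS1 stood at 35.3 FPKM in the RIP against 59.6 in the input, LRRC75A-AS1 at 133 and 213, and SNHG16 at 88.4 and 133. SNHG19, SNHG21, SNHG10, SNHG9 and SNHG20 had log2 ratios of -0.46, -0.46, -0.44, -0.44 and -0.37. The exceptions were SNHG11, at 17.7 FPKM in the RIP against 12.4 in the input, and SNHG17, at 74.8 and 61.9. Over all 24 noncoding hosts 19 ratios lay below 0, beside 41.2% of all genes. Of the 24, 2 genes, SNHG3 and SNHG4, were at least 2-fold lower, beside 2.5% of all genes. For comparison, the 516 genes of the same annotation classes past the floor (processed transcripts, antisense and lincRNA genes, the hosts included) had a median of -0.05, with 277 below 0.

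**Figure D4:**
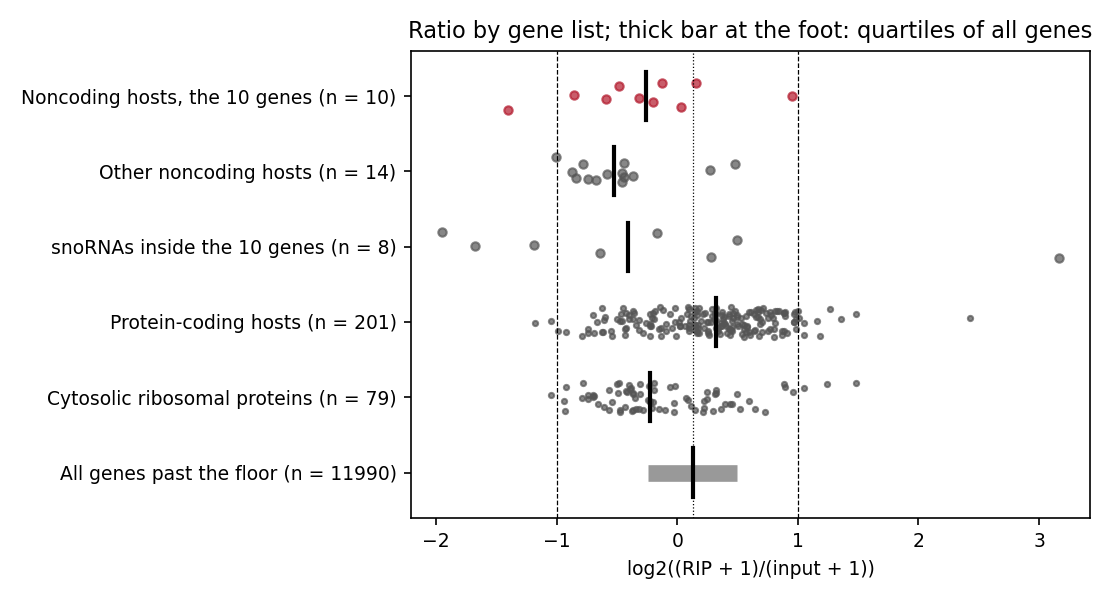
Log2 ratio of every gene in 5 lists (points) with the list's median (black bar), above the quartiles and median of all 11990 genes (grey bar), with dashed lines at 2-fold and a dotted line at the median gene. The medians of the 10 noncoding hosts (-0.26), the other noncoding hosts (-0.52) and ribosomal proteins (-0.23) lie left of the median gene, and that of protein-coding hosts (0.32) lies right of it. The snoRNA point farthest right is SNORA61, listed at 0 in the input, whose place depends on the pseudocount.

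Protein-coding snoRNA hosts found by position lay mostly above the median gene (131 of 201). In a shorter hand-written list 23 of 41 did, with a median of 0.22. Of 204 such genes found by position, 201 passed the floor, 144 had ratios above 0 and 57 below, and the median was 0.32. All 10513 protein-coding genes past the floor had a median of 0.15, with 6390 above 0. At the 2-fold limit 9 coding hosts were higher and 2 lower, beside 4.9% and 2.5% of all genes. Among the highest were MAGED4 (9.57 FPKM in the RIP against 0.97 in the input), which has a near-identical copy and is therefore uncertain, and NAP1L4, a histone chaperone gene (239 and 92.7). The lowest were FHIT (4.01 FPKM in the RIP against 10.3 in the input), RPS13 (260 and 538) and TMEM167A (14.1 and 28.9). Split by product, the 28 ribosomal protein genes among the coding hosts had a median of -0.12 and the other 173 had 0.37.

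Among genes known for TOP starts, ribosomal protein genes had a median near that of the 10 noncoding hosts (-0.26). The median of the TOP factors lay between those of these hosts and of the protein-coding hosts (0.32). Of 79 cytosolic ribosomal protein genes 51 had ratios below 0, beside 41.2% of all genes, and the median was -0.23. At the 2-fold limit 3 were higher and 1 lower, beside 4.9% and 2.5% of all genes. The 28 that hold snoRNAs had a median of -0.12 and the 51 that do not had -0.29, and ratios of either sign occurred in both. RPL19 (3822 FPKM in the RIP against 1618 in the input) and RPL3 (1059 and 512) were among the highest, and RPS13, RPS15A (746 and 1435) and RPS29 (250 and 477) the lowest. The 14 TOP translation and related factors had a median of 0.10, with 7 above and 7 below 0, beside 58.7% of all genes above. Among them EEF1D was highest (356 FPKM in the RIP against 246 in the input) and EIF3E lowest (87.6 and 152).

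Messenger RNAs of proteins that act on host RNAs lay mostly above the median gene (11 of 17), and those of snoRNP proteins on either side of it (8 of 15 above). Of 17 genes of nonsense-mediated decay and the exon junction complex, 13 had ratios above 0, beside 58.7% of all genes. Their median was 0.40. SMG1, the kinase of the pathway, stood at 93.0 FPKM in the RIP against 45.8 in the input. It was the only one of the 17 at least 2-fold higher, beside 4.9% of all genes. MAGOH (110 FPKM in the RIP against 57.5 in the input) and CASC3 (77.5 and 40.6), both of the exon junction complex, came next. PNRC2 (28.3 FPKM in the RIP against 46.0 in the input), SMG8 (13.5 and 20.4) and MAGOHB (33.9 and 37.3) were the lowest. Of 15 snoRNP protein and assembly genes 8 were above 0 and 7 below, beside 58.7% of all genes above 0, with a median of 0.18. NOP56, a core C/D protein whose own gene holds snoRNAs, stood at 860 FPKM in the RIP against 385 in the input. It was the only one of the 15 at least 2-fold higher, beside 4.9% of all genes. RUVBL2 (124 FPKM in the RIP against 65.9 in the input) and SHQ1 (17.4 and 11.6) followed, and GAR1 (10.6 and 16.9), ZNHIT6 (10.7 and 13.8) and NOP10 (76.3 and 90.0) were the lowest.

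Both libraries came from the transfected cells, so the level of the bait transcript does not check which of them was the RIP. TOP3B stood at 30666 FPKM in the RIP against 15062 in the input. Its log2 ratio was 1.03, or 0.90 when centred on the median gene. Endogenous and transfected copies are not separated, and the protein itself was not measured here. Of 16 cell type markers, LRP2 of kidney tubule (5.49 FPKM in the RIP against 1.96 in the input) and LIN28B (9.31 and 15.7) had values.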

How the data were processed

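RNA was measured in 1 RIP and 1 input library of HEK293 cells that carried the tagged TOP3B construct. Groups came from the sample titles. Per the labels' protocols, a commercial RIP kit and a stranded total RNA kit were used. Per the submitters' processing notes, the build was hg38 and the tools included RSEM 1.2.31, STAR 2.6.1, Trimmomatic 0.3 and cutadapt 1.18. Settings, annotation and any low-expression filter were not given in the sources used here. In all, the deposited table of 13075 genes names no unit. It was taken as FPKM made by the authors, because the values carry decimals and their sums differ (1090243 for the RIP and 1512049 for the input). FPKM is scaled to each library's total, so abundant RNAs lower all other values.

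Ratios were log2((RIP + 1)/(input + 1)), with a floor of 5 FPKM in at least 1 library, and they understate differences of low genes. There was 1 library per group, so no p-value was computed and lists were described by counts and medians. Multiples of a depth also give whole fragments, so the smallest depths scoring near the best were preferred over the best itself. Depth and mean fragment length (168 bases in the RIP and 165 in the input) were scored on how nearly fragments came out whole in genes with 1 transcript. Of 184 and 318 such genes 70.7% and 62.6% came within 0.15 of a whole fragment. Part of any set of values would come that near to a whole number. The search was also run on simulated data, and its outcome there is not given here. Fragments used the median transcript length, and RNAs under 140 bases used the lowest value shared by genes of 1 length, so all are approximate. Classes, positions and snoRNA sequences came from GENCODE release 29 on GRCh38 (12983 of 13075 genes, 99.3%, matched by Ensembl identifier) and start windows from RefSeq. Named genes were all 10 hosts, their snoRNAs, the other noncoding hosts, start-site neighbours past the floor, and the 3 highest and 3 lowest of the coding-host, TOP, decay and snoRNP lists, of which 1 gene is not reported here. EEF1D and EIF3E, the ends of the TOP factors, were added after their values were seen. Members and lists were chosen with earlier results of these data known. Calculations used Python 3.11.15, numpy 2.4.6, scipy 1.17.1, pandas 2.3.3, biopython 1.88 and matplotlib 3.10.9.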

Additional observations from a re-analysis of the deposited data

How the results depend on the processing

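No paired analysis was possible because a single library stood for each group, and TMM and DESeq2 scaling, planned only for counts, were not run. In all, 212 values were recomputed under other settings. Among the recomputed ratios and medians only that of SNHG3 was past 2-fold as deposited, and it kept its sign. By contrast, 5 hosts (SNHG7, SNHG12, SNHG15, GAS5 and ZFAS1) changed sign under a scaling. Centring shifted log2 ratios by -0.13 and scaling to protein-coding sums by -0.16. Under the latter 2 of the 10 hosts were at least 2-fold lower, SNHG8 joining SNHG3, as were 3 other noncoding hosts, and 5 protein-coding hosts were higher and 4 lower with a median of 0.15. Centring gave protein-coding hosts a median of 0.19 and 4 lower. The 1.5-fold limit gave 1 host higher and 3 lower, 6 other noncoding hosts lower, and 56 protein-coding hosts higher and 15 lower. With pseudocount 5, and with a floor of 20 FPKM, 0 other noncoding hosts and 1 protein-coding host were lower, and with that floor 0 snoRNAs inside hosts were higher. A hand-written list of protein-coding hosts gave 3 higher and 1 lower. Scaling to the sum of all values, tried after seeing the data, shifted log2 ratios by 0.45 and gave medians of 0.20 for the hosts, -0.073 for other noncoding hosts and 0.76 for protein-coding hosts, with 1 host and 61 protein-coding hosts higher and 0 of all 3 lists lower. Leaving out SNHG3, a choice made after seeing the data, left 0 hosts at least 2-fold lower. Fewer genes entered under the floor and the shorter list, and other causes were not tested. Depth limits SNORD22, SNORA24 and SNORA61, which rest on about 13 fragments or fewer in either library.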
